A study of Mus musculus with 12 samples.

Results

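Macrophages sorted from the mouse endometrium were compared between a model of intrauterine adhesion (IUA), in which scar tissue joins the walls of the uterine cavity, and a sham operation (Sham). The comparison drew on 6 of the 12 libraries of the series, 3 from IUA mice and 3 from Sham mice. It covered 11604 of the 22294 genes in the deposited table, those that reached 1 FPKM in 3 or more of the 12 libraries. FPKM is the number of sequenced fragments per kilobase of transcript and per unit of mapped fragments, so it can be set side by side between genes. The IUA mice were modelled for adhesion. Their libraries alone bear the name Matrigel, a basement membrane gel, and the sources used here do not say whether the gel made the model or carried cells, so an effect of the gel and of the model cannot be told apart. The Sham mice are labelled untreated. IUA mice given mesenchymal stromal cells from human umbilical cord, either primed with inflammatory cytokines or as control cells, made up the other libraries, 3 of each, and entered the fit for the estimate of the spread. All endometria were digested with trypsin and collagenase, red blood cells were lysed, and F4/80-positive cells were taken up with magnetic beads before polyadenylated RNA was sequenced. The strain and age of the mice, the time after the operation and the number of animals behind a library are not given in the sources used here. The p-values below therefore measure the spread between these samples, which may be technical.

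Macrophages of the endometrium clear dead cells and matrix after tissue breakdown and release factors that guide the regrowth of epithelium and vessels. After an injury, monocytes enter from the blood and become macrophages beside the cells that already lived in the tissue. Scar tissue forms where fibroblasts lay down collagen in place of the lost lining. F4/80, the antigen of the sort, is a surface receptor encoded by Adgre1 and is carried by most mouse macrophages and by some eosinophils.

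The FPKM of a library summed to 550385.4 to 563751 in IUA and to 505459.9 to 527217.4 in Sham. These sums are no measure of sequencing depth, which is unknown. The 10 most abundant genes took 20.8% to 23.9% of that sum in IUA libraries and 14.9% to 16% in Sham libraries. Because a shift in composition can lower the FPKM of the other genes, a gene is said here to rise or fall only where limma gave a Benjamini-Hochberg adjusted p under 0.05 with the same sign on the FPKM as deposited and again on FPKM divided by median-ratio size factors. Over all tested genes the median log2 change was -0.35 on the deposited scale and -0.03 after the median-ratio scaling. Log2 changes are IUA minus Sham on log2(FPKM + 1), from the deposited scale, with their standard error, and they understate the change of low genes. IUA replicate 3 stood apart from the other libraries in its relation to GC content. Its deviation from the mean of the libraries was related across genes to the GC content of transcripts, with a Spearman correlation of -0.485. The same measure was -0.15 in IUA replicate 1, -0.183 in IUA replicate 2 and 0.0631 to 0.0875 in the Sham libraries. It was -0.0916 to 0.0868 with control MSC and 0.146 to 0.22 with primed MSC. By a log2 distance of at least 1, IUA replicate 3 lay outside the other 2 libraries of its group in 183 tested genes. That count was 172 for IUA replicate 1 and 88 for IUA replicate 2. Genes are not independent replicates, so no p is given.

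The sorted cells carried macrophage genes in both groups, at higher levels in IUA. Adgre1 stood at 476, 401 and 424 FPKM in IUA, against 256, 207 and 205 FPKM in Sham. The groups did not overlap, and the log2 change was 0.96 ± 0.14 (SE, adjusted p = 2.60e-04). Cd68, a glycoprotein of macrophage lysosomes, rose with a log2 change of 1.26 ± 0.16, and Ptprc, the leukocyte antigen CD45, by 1.17 ± 0.13. Csf1r, which encodes the receptor for CSF1 and interleukin-34, had 242, 249.6 and 116 FPKM in IUA, against 167, 135 and 143 FPKM in Sham. IUA replicate 3 lay below all Sham libraries, and the change of 0.37 ± 0.23 (SE, adjusted p = 0.18) was not called. Without IUA replicate 3 Csf1r was called higher. Of the macrophage identity list, 18 of 22 tested members rose and none fell (median log2 change 1.000). The 22 genes of this list made up 6.49% to 7.12% of the summed FPKM in IUA libraries and 2.50% to 2.95% in Sham libraries. Spi1, which encodes the lineage factor PU.1, changed by 0.28 ± 0.19, Cebpb by 0.05 ± 0.36 and the fractalkine receptor gene Cx3cr1 by -0.60 ± 0.17, and none of these was called. In these bulk samples fewer cells of a type and less RNA per cell cannot be told apart.

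Genes of other uterine cells were also present, and those of epithelium and endothelium were lower in IUA. Among all tested genes 23.4% were called lower. Of the uterine epithelium list, none of 19 tested members rose and 18 fell (median log2 change -1.79), and 9 fell at an adjusted p under 0.01. Its 20 members summed to 1708 to 5582 FPKM in IUA and 8446 to 14666 FPKM in Sham, with no member at 0. Krt18, a keratin of simple epithelia, had 652, 2413 and 1638 FPKM in IUA, against 3782, 5625 and 6230.1 FPKM in Sham. IUA replicate 1 was the lowest library, and the highest IUA value lay below the lowest Sham value, with a log2 change of -1.89 ± 0.44 (SE, adjusted p = 0.00345). Epcam, a defining adhesion molecule of epithelium, had 86.5, 319.8 and 192 FPKM in IUA, against 277, 742 and 627 FPKM in Sham. Its groups overlapped, and it was not called (log2 change -1.53 ± 0.54). In the endothelium list all 15 members were tested and all fell, with a median log2 change of -1.50 and a summed level of 120.5 to 189 FPKM in IUA and 333 to 571 FPKM in Sham. Without IUA replicate 3, 12 of the 15 were called. The call of the endothelial marker gene Pecam1 (log2 change -0.90 ± 0.20) was lost without any single IUA library, Sham replicate 1 or Sham replicate 2. In the smooth muscle and pericyte list, none of 11 tested members rose and 3 fell (median log2 change -1.004), a share of 27.3% that is close to that of all tested genes. That count ran from 1 without IUA replicate 1, IUA replicate 2 or Sham replicate 1 to 5 without Sham replicate 3. The stromal list gave 1 higher and 6 lower of 14, a median of -0.88, and overlapping sums of 438 to 1108 FPKM in IUA and 648 to 1142 FPKM in Sham. With a filter at 5 FPKM 2 stromal members were lower. The 1 higher member, vimentin (Vim), lost its call without IUA replicate 1, IUA replicate 3, Sham replicate 2 or Sham replicate 3. The part of these cells in the results on macrophage genes was not tested.

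Blood and tissue leukocytes other than macrophages differed by type. Of the neutrophil list, 7 of 10 tested members rose and none fell (median log2 change 2.24). Its 13 members summed to 357 to 487 FPKM in IUA and 61.8 to 105 FPKM in Sham. The largest part of the IUA sums was Ltf, at 242, 307 and 246 FPKM, which is also counted among uterine gland genes. The defining neutrophil marker Ly6g stayed below 1 FPKM in every one of the 6 libraries. S100a8, a subunit of the alarmin calprotectin, had 54.7, 15.3 and 22.6 FPKM in IUA, against 1.05, 0.82 and 3.78 FPKM in Sham, without overlap and with a log2 change of 3.41 ± 0.51 (SE, adjusted p = 2.97e-04). Ngp, a protein of neutrophil granules, had 16.1, 5.61 and 10.1 FPKM in IUA, against 0, 0.05 and 0.81 FPKM in Sham. Among mast cell genes, none of 9 tested members rose and 4 fell (median log2 change -1.35). The 4 were Gata2, Kit, Hdc and Mcpt4, and the other tested members were not called. Mcpt4 lost its call without IUA replicate 2, IUA replicate 3 or Sham replicate 1. Kit, the stem cell factor receptor, had 5.68, 10.8 and 5.35 FPKM in IUA, against 21.4, 37.2 and 37.7 FPKM in Sham, a log2 change of -2.01 ± 0.32 (SE, adjusted p = 3.82e-04), and the list summed to 34.4 to 104 FPKM in IUA and 163 to 220 FPKM in Sham. Hdc alone had 36.9, 26.1 and 21.3 FPKM in IUA, against 82.6, 101 and 81.3 FPKM in Sham, a large part of the Sham sums. The member Ms4a2 stayed below 1 FPKM in all 6 libraries. The eosinophil list had 4 of 9 members tested, of which 1 rose and 1 fell, with Epx and Ear6 at 0 in all 6 libraries and Siglecf below 1 FPKM. It summed to 54.6 to 81 FPKM in IUA and 98.2 to 204 FPKM in Sham. Ear2, an eosinophil-associated ribonuclease, rose with a log2 change of 1.55 ± 0.40. Alox15, a lipoxygenase that some macrophages also make, had 35.2, 63.7 and 46.4 FPKM in IUA, against 143, 92.3 and 199 FPKM in Sham and so carried most of that sum. It fell with a log2 change of -1.53 ± 0.40, a call lost without IUA replicate 1, IUA replicate 3, Sham replicate 1 or Sham replicate 3. Of the dendritic cell list, 2 of 7 tested members rose and 3 fell (median log2 change -0.14). Its sums overlapped, at 85.8 to 136.6 FPKM in IUA and 116.3 to 137.2 FPKM in Sham. Flt3, Clec9a and Itgae were below 1 FPKM in all 6 libraries. Cd209a fell with a log2 change of -1.94 ± 0.33 (SE, adjusted p = 5.36e-04) and Siglech, of plasmacytoid cells, by -1.58 ± 0.18 (SE, adjusted p = 5.99e-05), while the chemokine receptor gene Xcr1 rose with a log2 change of 0.69 ± 0.18. Zbtb46 fell, a call lost without IUA replicate 3, Sham replicate 1 or Sham replicate 2. Ccr7 rose, a call lost without IUA replicate 1 or Sham replicate 3. T cell genes Cd3d, Cd3e and Cd3g were below 1 FPKM throughout, as were the B cell genes Ms4a1 and Pax5. Their lists summed to 52.1 to 82.5 FPKM in IUA and 46.2 to 74.9 FPKM in Sham for T and NK cells, and to 444 to 535 FPKM in IUA and 549 to 716 FPKM in Sham for B and plasma cells. In the B and plasma cell list 3 of 7 tested members rose and 1 fell (median log2 change 0.69). Its member that fell, Xbp1, had 200, 208 and 208 FPKM in IUA, against 344, 401 and 401 FPKM in Sham, the largest part of that sum. Sdc1, a cell surface proteoglycan that epithelium and plasma cells carry, rose with a log2 change of 1.41 ± 0.26, and without IUA replicate 1 the members that rose numbered 2.

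**Figure D1:**
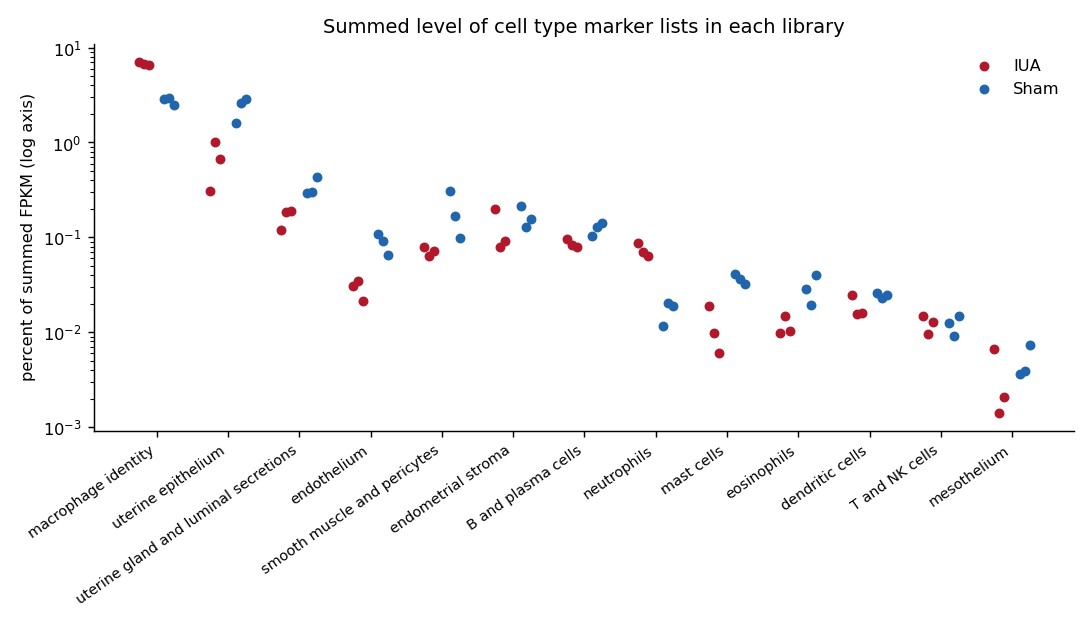
Share of the summed FPKM held by the genes of each cell type list, in percent on a log axis, with 1 point per library (IUA left in red, Sham right in blue, replicates 1 to 3 from left to right). Macrophage identity genes reach 6.49% to 7.12% in IUA and 2.50% to 2.95% in Sham, while uterine epithelium and endothelium lists are lower in each IUA library than in any Sham library.

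Of the tested genes 34.5% were called. In IUA 1291 genes rose, 11.1% of those tested, and 2716 fell, 23.4% of those tested. The genes that rose were fewer but more abundant. They held 49.3% to 53.9% of the summed FPKM in IUA libraries and 26.8% to 30.8% in Sham libraries, whereas the genes that fell held 5.50% to 8.45% in IUA and 15.6% to 20.7% in Sham. Both sets were picked by their difference between these libraries, so the direction of these gaps was fixed in advance. By size, a log2 change of 1 or more was reached by 427 genes that rose and 1636 that fell, one of 2 or more by 103 and 125, one of 3 or more by 30 and 7, and one of 4 or more by 9 and none. The split depended on the scaling. On the deposited scale alone 1291 rose and 5226 fell, and with the median-ratio scaling alone 2532 rose and 2716 fell. Of the genes called with all libraries, 1122 higher and 2119 lower ones were also called without IUA replicate 3, and 1151 and 2353 after a correction for transcript GC content. On the FPKM as deposited, all IUA values lay above all Sham values in 11.9% of tested genes and below them in 47.7%. Genes named below for the largest changes were picked among those without overlap, so their lack of overlap adds no support. The first principal component of the 6 libraries, with 75.0% of their variance, had the IUA libraries at one end and the Sham libraries at the other.

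**Figure D2:**
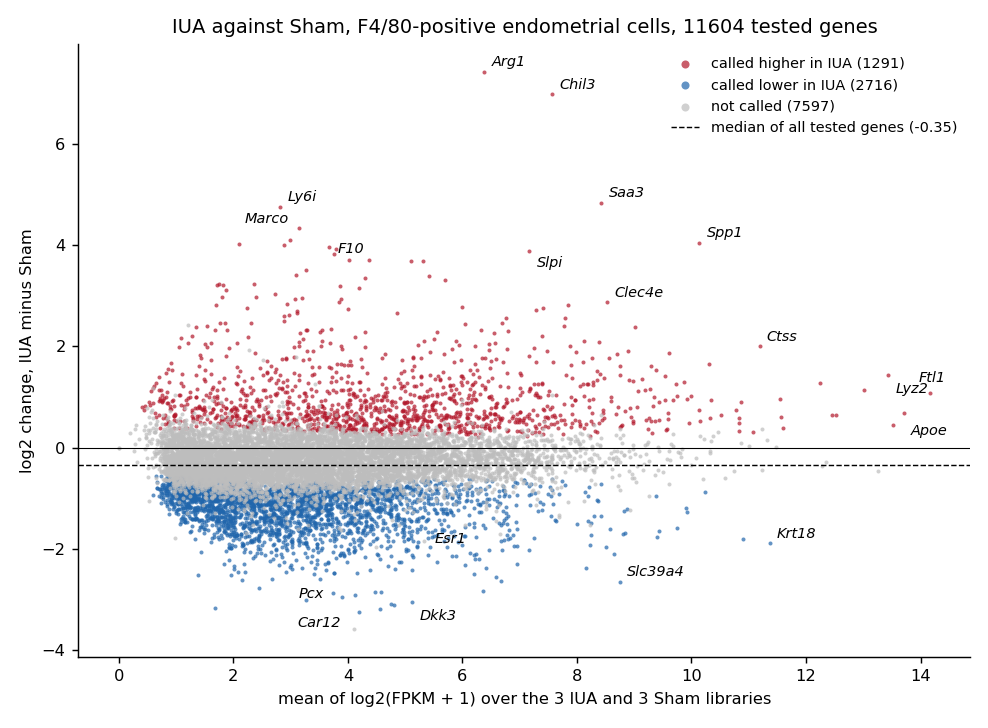
Log2 change (IUA minus Sham) against the mean of log2(FPKM + 1) over the 6 libraries for the 11604 tested genes. The 1291 genes called higher (red) extend to 7.43 for Arg1, the 2716 called lower (blue) lie below the dashed all-gene median of -0.35, and grey points were not called.

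Arg1 had the largest increase of all tested genes. It encodes arginase 1, which splits arginine to ornithine and urea, and lies on chromosome 10, 24915221 to 24927484 (mm10). Arg1 had 986, 1617 and 817 FPKM in IUA, against 2.72, 9.89 and 5.29 FPKM in Sham. Every IUA library exceeded every Sham library, and the log2 change was 7.43 ± 0.34 (SE, adjusted p = 1.39e-07). Chil3 (chromosome 3, 106147554 to 106167564) encodes Ym1, a chitinase-like lectin that mouse macrophages secrete under interleukin-4, and had 2639.7, 4775 and 759.9 FPKM in IUA, against 13.6, 19.4 and 14.7 FPKM in Sham. The groups lay far apart, but the IUA libraries differed among themselves 6.28-fold, with replicate 2 highest and replicate 3 lowest (log2 change 6.99 ± 0.54, SE, adjusted p = 4.06e-06). Spp1 (chromosome 5, 104435118 to 104441050) encodes osteopontin, a secreted adhesive phosphoprotein, and was at 5762, 3939 and 4253 FPKM in IUA, against 243, 301 and 286 FPKM in Sham. IUA replicate 1 was the highest library, the groups did not overlap, and Spp1 rose with a log2 change of 4.05 ± 0.18 (SE, adjusted p = 1.39e-07).

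Other large increases fell among secreted and surface proteins of myeloid cells. Saa3, an acute-phase serum amyloid A, had 1747, 3167 and 1127 FPKM in IUA, against 61.7, 60.1 and 67.6 FPKM in Sham, a log2 change of 4.85 ± 0.35. Slpi, an inhibitor of leukocyte proteases, had 592, 732 and 393 FPKM in IUA, against 42, 28 and 40.7 FPKM in Sham. Marco, a scavenger receptor for bacteria, had 40.6, 48.6 and 29.5 FPKM in IUA, against 0.84, 1.1 and 0.95 FPKM in Sham. None of these overlapped between the groups, and IUA replicate 2 was the highest and replicate 3 the lowest library for each. Apoc2, the apolipoprotein that activates lipoprotein lipase, showed little spread at 148, 151 and 126 FPKM in IUA, against 10.8, 9.49 and 9.69 FPKM in Sham (log2 change 3.69 ± 0.13, SE, adjusted p = 1.86e-08). Inhba, the subunit of activin A, a ligand of the TGF-beta family, had 198, 91.7 and 99.5 FPKM in IUA, against 12, 6.69 and 7.57 FPKM in Sham. Fpr1, the receptor for formylated bacterial peptides, had 54.1, 69.2 and 51.8 FPKM in IUA, against 3.71, 3.75 and 3.07 FPKM in Sham. Tarm1, an activating receptor of myeloid cells, rose with a log2 change of 4.01 ± 0.28, and Sirpb1c, of the signal-regulatory protein family, by 3.83 ± 0.22. Sirpb1c has close paralogs, so its reads may be shared with them. The largest gains in mean FPKM, rather than in ratio, were those of Ftl1 and Fth1, the light and heavy chains of the iron store ferritin, and of Lyz2, macrophage lysozyme. Ftl1 had 28165, 24337 and 27761 FPKM in IUA, against 15065, 11154 and 11953 FPKM in Sham, Lyz2 had 18544, 18429 and 17701 FPKM in IUA, against 6556, 8169 and 5769 FPKM in Sham, and the log2 changes were 1.08 ± 0.14 and 1.43 ± 0.13.

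**Figure D3:**
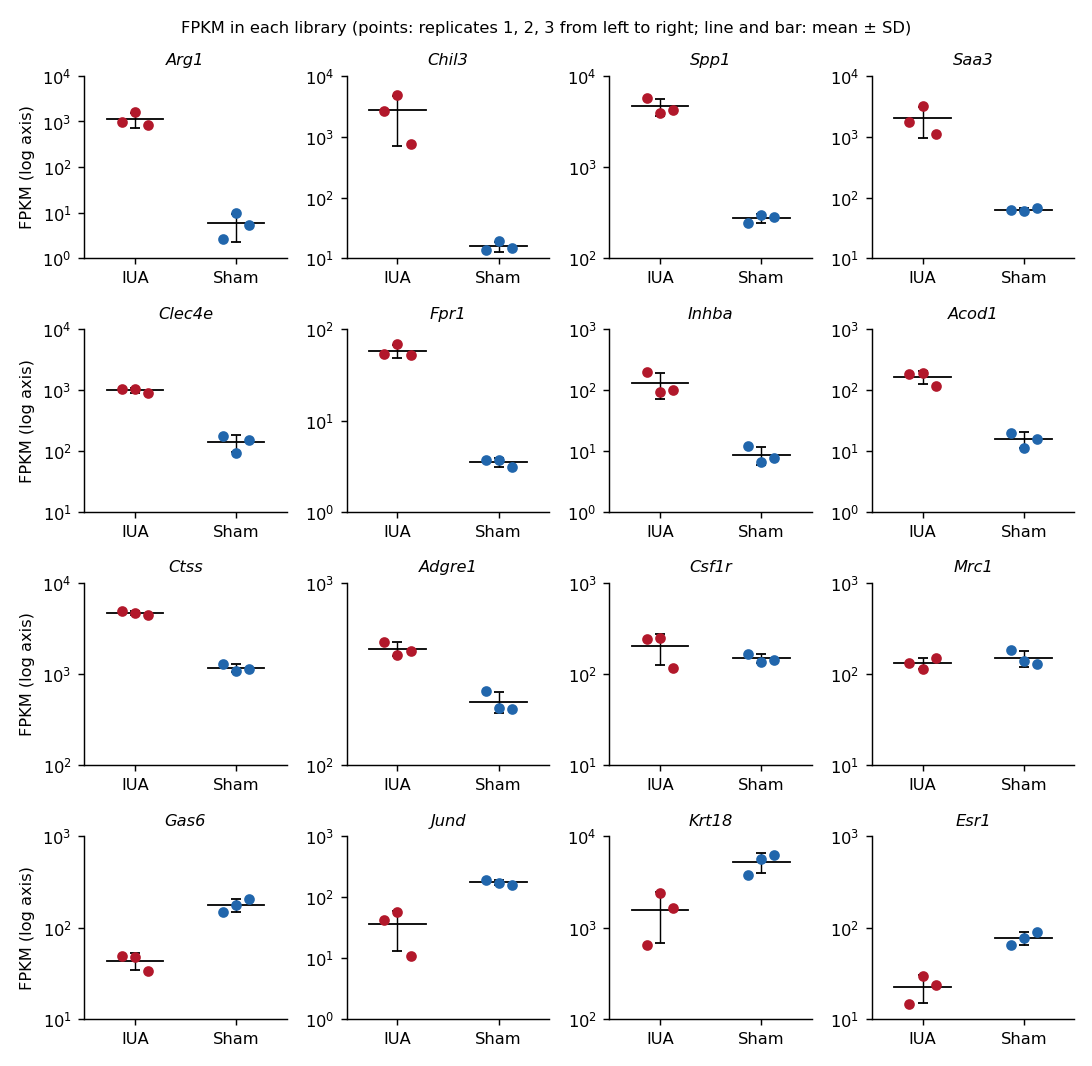
FPKM of 16 genes in each library on log axes (IUA left in red, Sham right in blue, lines and bars show mean ± SD of 3 libraries). For Arg1 to Adgre1 all IUA points lie above all Sham points, Csf1r and Mrc1 overlap, and for Gas6, Jund, Krt18 and Esr1 all IUA points lie below.

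The stretches before the start sites of 5 of the genes that rose are shown because they hold short motifs of factors that act in myeloid cells. RefSeq promoters (GRCm38.p6) were matched by symbol to 9191 tested genes, among them 1005 that rose and 2128 that fell, and the 250 bases before the first listed start were searched on both strands. The PU.1 motif AGGAAGT was present in 13.7% of the genes that rose, 5.4% of those that fell and 7.88% of all tested. For C/EBP (TTGCNNAA) the shares were 11.8%, 7.28% and 7.75%, for AP-1 (TGACTCA) 4.88%, 3.24% and 3.24%, for NF-kB (GGGA, any base, then TTTCC) 0.995%, 0.235% and 0.403%, and for an interferon-type element (TTTC repeated after any 2 bases) 5.27%, 1.74% and 2.77%. Matches of different motifs overlapped in 5 tested genes. The median GC content of the windows was 56.8% for genes that rose, 60.8% for genes that fell and 59.6% for all tested, and its part in these shares was not tested. Below, capitals mark every match to one of the 5 motifs. Spp1, Chil3 and Acod1 hold the PU.1 motif, Saa3 and Clec4e the C/EBP motif, and Spp1 and Saa3 also the interferon-type letters. A match describes these letters and not a bound site.
Spp1 (chr5:104434861-104435110, plus strand): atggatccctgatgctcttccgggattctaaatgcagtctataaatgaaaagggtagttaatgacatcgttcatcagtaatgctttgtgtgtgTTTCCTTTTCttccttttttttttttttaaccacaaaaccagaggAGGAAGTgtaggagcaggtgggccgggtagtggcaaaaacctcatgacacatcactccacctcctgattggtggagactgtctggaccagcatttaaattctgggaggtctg
Chil3 (chr3:106167565-106167814, minus strand): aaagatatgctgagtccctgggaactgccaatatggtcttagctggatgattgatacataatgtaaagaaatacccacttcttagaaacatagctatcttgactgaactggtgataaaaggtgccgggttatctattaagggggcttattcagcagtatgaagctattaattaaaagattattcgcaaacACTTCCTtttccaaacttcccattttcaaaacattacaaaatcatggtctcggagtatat
Acod1 (chr14:103046762-103047011, plus strand): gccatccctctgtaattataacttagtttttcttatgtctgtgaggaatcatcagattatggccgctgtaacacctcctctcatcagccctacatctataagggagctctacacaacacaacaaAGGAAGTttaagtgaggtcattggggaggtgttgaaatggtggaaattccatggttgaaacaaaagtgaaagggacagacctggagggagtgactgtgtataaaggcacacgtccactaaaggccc
Saa3 (chr7:46715677-46715926, minus strand): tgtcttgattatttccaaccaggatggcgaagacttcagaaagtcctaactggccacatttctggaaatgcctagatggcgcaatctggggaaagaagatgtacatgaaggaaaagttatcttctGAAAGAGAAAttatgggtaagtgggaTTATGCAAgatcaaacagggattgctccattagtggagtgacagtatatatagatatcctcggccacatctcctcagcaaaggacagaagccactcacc
Clec4e (chr6:123289872-123290121, minus strand): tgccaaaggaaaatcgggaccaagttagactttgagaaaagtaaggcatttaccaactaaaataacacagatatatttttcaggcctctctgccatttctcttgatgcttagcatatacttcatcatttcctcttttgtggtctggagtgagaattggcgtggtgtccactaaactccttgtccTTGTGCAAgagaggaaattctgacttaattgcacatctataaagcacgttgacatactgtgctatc

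Genes of monocytes and recently recruited macrophages rose, while those of resident macrophages mostly were not called. In the monocyte list 14 of 17 tested members rose and 1 fell (median log2 change 1.62), beside 11.1% and 23.4% of all tested genes. Ly6c2, the surface antigen of inflammatory mouse monocytes, rose with a log2 change of 2.94 ± 0.64, and its family member Ly6i by 4.76 ± 0.45. The Ly6 genes are close copies of each other, so their reads may be shared. F10, coagulation factor X, had 46.3, 70.7 and 35.8 FPKM in IUA, against 2.12, 2.23 and 2.28 FPKM in Sham, a log2 change of 3.96 ± 0.20 (SE, adjusted p = 2.67e-07). Ccr2, the chemokine receptor that draws monocytes from the marrow, rose with a log2 change of 0.997 ± 0.20. Lyz1, a lysozyme near-identical to Lyz2, was the member that fell (log2 change -1.05 ± 0.21), a call lost without IUA replicate 3 or Sham replicate 2.

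In the tissue-resident list 5 of 18 tested members rose and 1 fell (median log2 change -0.07). Mrc1, the mannose receptor CD206, had 133, 115 and 151 FPKM in IUA, against 184, 138 and 127 FPKM in Sham. The groups overlapped, and it was not called. Folr2, a folate receptor, changed by -0.01 ± 0.18, Cd163, the haemoglobin scavenger receptor, by -0.30 ± 0.20, and Lyve1, a hyaluronan receptor, by -0.93 ± 0.31, none of them called. The exceptions moved in both directions. Vsig4, a complement receptor of resident macrophages, had 22.9, 14.1 and 22.8 FPKM in IUA, against 2.1, 1.79 and 1.74 FPKM in Sham, a log2 change of 2.83 ± 0.31 (SE, adjusted p = 5.54e-05). Gas6, the ligand through which dying cells are recognised by Axl and Mertk, had 49.3, 47.7 and 33.2 FPKM in IUA, against 149.7, 178 and 205 FPKM in Sham, a log2 change of -2.02 ± 0.19 (SE, adjusted p = 2.15e-05). Timd4, which binds phosphatidylserine on dying cells, rose with a log2 change of 0.80 ± 0.21. Without Sham replicate 3 a second member was called lower, and with GC correction and without IUA replicate 3 the members that rose numbered 3.

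Genes of lipid-laden and scar-associated macrophages rose, as 16 of 18 tested members rose and none fell (median log2 change 1.07). Trem2, a lipid receptor of these cells, had 240.2, 194 and 221 FPKM in IUA, against 112, 88 and 88.3 FPKM in Sham, and the groups did not overlap (log2 change 1.18 ± 0.15, SE, adjusted p = 1.14e-04). Gpnmb, a glycoprotein of phagocytes, had 162, 70.6 and 93.9 FPKM in IUA, against 18.4, 15.3 and 29.6 FPKM in Sham. Fabp5 and Fabp4, which carry fatty acids within the cell, rose with log2 changes of 1.77 ± 0.23 and 1.60 ± 0.30, the fatty acid receptor gene Cd36 by 1.27 ± 0.22, and lipoprotein lipase gene Lpl by 1.41 ± 0.24. The tetraspanin genes Cd63 and Cd9 were not called, at 0.08 ± 0.14 and -0.72 ± 0.20. This list rose about as much as the macrophage identity list, of which 18 of 22 rose with a median log2 change of 1.000. Among all tested genes 11.1% were called higher. Lysosomal genes moved alongside. Of the lysosome list, 20 of 28 tested members rose and none fell (median log2 change 0.80). Ctss, a cathepsin that trims the invariant chain of MHC class II, had 4902, 4727 and 4419 FPKM in IUA, against 1291, 1077 and 1138 FPKM in Sham, with little spread in either group (log2 change 2.004 ± 0.10, SE, adjusted p = 2.67e-07). The matrix-degrading cathepsins Ctsl and Ctsk rose with log2 changes of 1.90 ± 0.16 and 1.29 ± 0.26, and Atp6v0d2, a subunit of the proton pump, by 1.99 ± 0.24. Tfeb, the transcription factor of lysosome formation, changed by -0.42 ± 0.22 and was not called. Without IUA replicate 1 or IUA replicate 2, 1 member of the lysosome list was called lower.

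Interleukin-1 family genes and their regulators rose together, since 10 of 15 tested members rose and none fell (median log2 change 1.05). Il1a had 633, 737 and 481 FPKM in IUA, against 94.6, 71.5 and 90.03 FPKM in Sham, without overlap (log2 change 2.83 ± 0.20, SE, adjusted p = 2.49e-06). Il1b, the secreted cytokine that needs cleavage by caspase 1, rose with a log2 change of 1.78 ± 0.24. Genes that restrain the pathway rose as well. The receptor antagonist gene Il1rn changed by 1.03 ± 0.19, the decoy receptor gene Il1r2 by 1.85 ± 0.28, and Il18bp, which binds interleukin-18, had 54.4, 50.7 and 63.2 FPKM in IUA, against 19.6, 18.3 and 24.4 FPKM in Sham. Pycard, the adaptor of inflammasomes, rose with a log2 change of 1.62 ± 0.20 and Gsdmd, whose product forms the pores of pyroptosis, by 1.05 ± 0.13. Nlrp3 and Casp1, the sensor and the protease, were not called, at 0.41 ± 0.28 and 0.28 ± 0.14. Among other cytokines 9 of 15 tested members rose and none fell (median log2 change 0.83). Il23a, a subunit of interleukin-23, had 9.8, 13.8 and 10.8 FPKM in IUA, against 0.47, 0.59 and 1.54 FPKM in Sham, and Il10, the anti-inflammatory cytokine, had 125, 113 and 119 FPKM in IUA, against 53.1, 28.5 and 51.2 FPKM in Sham. Both were higher in every IUA library than in any Sham library. Osm, oncostatin M, rose with a log2 change of 0.98 ± 0.17, and Il6 by 1.07 ± 0.27. Interleukin-12 subunit Il12b and the growth factor Csf1 were not called (log2 change 0.38 ± 0.29 and -0.82 ± 0.19). Without IUA replicate 1, 1 member of this list was called lower, and at an adjusted p under 0.01 the members that rose numbered 5.

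Of the chemokine list, 12 of 23 tested members rose and 1 fell (median log2 change 0.93). The neutrophil attractants Cxcl1, Cxcl2, Cxcl3 and Cxcl5 rose with log2 changes of 1.86 ± 0.26, 1.35 ± 0.21, 2.15 ± 0.17 and 1.87 ± 0.47. Ccl24, eotaxin-2, had 63, 124 and 51.2 FPKM in IUA, against 4.66, 6.01 and 3.7 FPKM in Sham. Cxcl13, which draws B cells, had 77.7, 57.6 and 53.7 FPKM in IUA, against 7.44, 4.66 and 3.88 FPKM in Sham. Both were separated without overlap, by 3.71 ± 0.41 (SE, adjusted p = 5.69e-05) and 3.36 ± 0.30 (SE, adjusted p = 1.40e-05). Ccl3, which draws monocytes and other leukocytes, rose with a log2 change of 0.93 ± 0.24. The monocyte attractants Ccl2, Ccl7 and Ccl12 were not called, at -0.47 ± 0.22, -0.59 ± 0.28 and 0.18 ± 0.33, and neither were Ccl8 (log2 change -0.03 ± 0.37) and Ccl4 (log2 change -0.22 ± 0.28). Cx3cl1, fractalkine, was the member that fell (log2 change -1.90 ± 0.36), and without IUA replicate 1 a second member was called lower. In the receptor list 7 of 14 tested members rose and none fell (median log2 change 0.60). Ccr1, for CCL3, CCL6 and CCL9 in mice, had 282, 215 and 242 FPKM in IUA, against 54.3, 46.9 and 45.8 FPKM in Sham, a log2 change of 2.30 ± 0.12 (SE, adjusted p = 3.68e-07), and its ligands Ccl6 and Ccl9 rose with log2 changes of 2.38 ± 0.15 and 1.80 ± 0.15. C5ar1, the receptor for complement C5a, was not called, at 0.14 ± 0.13.

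Receptors for microbes and for immune complexes rose broadly. Of the C-type lectin receptors, 9 of 13 tested members rose and 1 fell (median log2 change 1.24). Clec4e, the receptor Mincle for mycobacterial cord factor, had 1060.3, 1057 and 895 FPKM in IUA, against 179, 92.8 and 149.9 FPKM in Sham, and Clec7a, the beta-glucan receptor Dectin-1, had 479, 526 and 496 FPKM in IUA, against 106, 91 and 84.8 FPKM in Sham. The IUA libraries were close to each other in both and lay above every Sham library, by 2.87 ± 0.24 (SE, adjusted p = 8.35e-06) and 2.40 ± 0.11 (SE, adjusted p = 1.39e-07). Clec4d and Clec4n, lectin receptors of the same gene cluster as Clec4e, rose with log2 changes of 2.21 ± 0.15 and 1.47 ± 0.13. Of the Fc receptor list, 10 of 13 tested members rose and none fell (median log2 change 0.81). Fcgr4 had 115, 129 and 125 FPKM in IUA, against 31.4, 31 and 25.6 FPKM in Sham, the inhibitory receptor gene Fcgr2b rose with a log2 change of 1.70 ± 0.12, and the signalling chain gene Fcer1g by 1.296 ± 0.16. Without Sham replicate 1, 1 member was called lower. Toll-like receptors were more mixed, with 8 of 18 tested members higher and 1 lower (median log2 change 0.27). Tlr13, which senses bacterial ribosomal RNA, rose with a log2 change of 1.72 ± 0.15, Tlr7 by 1.02 ± 0.12 and Tlr2 by 0.50 ± 0.11. Tlr4, for lipopolysaccharide, and the adaptor gene Myd88 were not called (log2 change -0.25 ± 0.11 and -0.51 ± 0.15), while the brake Irak3 had 25, 25.1 and 25.2 FPKM in IUA, against 10.3, 8.46 and 10.7 FPKM in Sham. The 1 member that fell, Tlr3, lost its call without IUA replicate 1, Sham replicate 2 or Sham replicate 3.

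Scavenging and opsonising genes moved both ways. Of the scavenger and efferocytosis list, 9 of 18 tested members rose and 4 fell (median log2 change 0.35). The share that fell, 22.2%, was near the 23.4% of all tested genes. Receptors for modified lipoproteins rose, Msr1 by 2.04 ± 0.18 and Olr1 by 2.88 ± 0.30. Of the molecules that bridge phagocytes and dying cells, Gas6 fell as above, and so did Mfge8. Mfge8 had 58.4, 54.6 and 33 FPKM in IUA, against 158, 133 and 144 FPKM in Sham (log2 change -1.59 ± 0.24, SE, adjusted p = 2.95e-04). The lipoprotein receptor gene Scarb1 fell with a log2 change of -1.50 ± 0.22. In the complement list 11 of 19 tested members rose and 2 fell (median log2 change 0.52). The alternative pathway genes Cfp and Cfb, properdin and factor B, rose with log2 changes of 1.77 ± 0.27 and 2.07 ± 0.33, and C3 by 1.26 ± 0.22. C1qb, of the recognition unit C1q, had 2749, 2391 and 2504 FPKM in IUA, against 1702, 1222 and 1211 FPKM in Sham. Cd55, which protects host cells from complement, fell with a log2 change of -1.42 ± 0.23 (SE, adjusted p = 4.71e-04). The count of members that fell was 1 without Sham replicate 3.

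Antigen presentation genes rose in part, and few interferon-stimulated genes were called. For MHC class II 7 of 10 tested members rose and none fell (median log2 change 0.65), and 2 rose with a log2 change of at least 1. Cd74, which encodes the invariant chain, had 15595, 11977 and 13793 FPKM in IUA, against 10252, 10491 and 9304 FPKM in Sham (log2 change 0.45 ± 0.16). Its call was lost without IUA replicate 1, IUA replicate 3 or Sham replicate 3, and its sign reversed under quantile normalization. H2-DMa, which loads peptides, had 247, 218 and 223 FPKM in IUA, against 120, 127 and 97.6 FPKM in Sham, and the co-stimulatory genes Cd80 and Cd86 rose with log2 changes of 1.10 ± 0.16 and 0.65 ± 0.19. H2-Aa and H2-Eb1 were not called (log2 change 0.36 ± 0.15 and 0.24 ± 0.16). For MHC class I 7 of 15 tested members rose and none fell (median log2 change 0.01). B2m, the light chain of class I molecules, had 3860.4, 4112 and 4549 FPKM in IUA, against 2689, 2064 and 1786 FPKM in Sham, and the immunoproteasome subunit genes Psmb8, Psmb9 and Psmb10 rose with log2 changes of 0.75 ± 0.13, 0.85 ± 0.20 and 0.64 ± 0.11. The peptide transporter gene Tap1 was not called (log2 change -0.16 ± 0.25). Of the type I interferon-stimulated genes, 3 of 20 tested members rose and 1 fell (median log2 change -0.55), beside 11.1% and 23.4% of all tested genes. Ifit1, an RNA-binding antiviral protein, had 48.4, 69 and 56.4 FPKM in IUA, against 220, 112 and 162 FPKM in Sham. Every IUA value lay below every Sham value, yet the change of -1.45 ± 0.44 was not called. Isg15, a ubiquitin-like modifier, changed by -0.11 ± 0.29 and was not called. The count of genes that fell in this list was 0 without Sham replicate 1 and 2 without Sham replicate 3. Among genes induced by interferon-gamma 1 of 14 tested members rose and 2 fell (median log2 change -0.37). Cxcl9, the chemokine for CXCR3, had 9.71, 8.8 and 9.17 FPKM in IUA, against 1.13, 1.5 and 1.09 FPKM in Sham, and Cxcl10, with the same receptor, had 28.5, 38.5 and 29.8 FPKM in IUA, against 66.8, 48.5 and 42.3 FPKM in Sham. The first was called higher (log2 change 2.19 ± 0.20, SE, adjusted p = 1.55e-05) and the second was not called (log2 change -0.67 ± 0.28). Of the GTPases of this group, Gbp2 changed by 0.21 ± 0.25 and Igtp by -0.83 ± 0.26, not called. A second member was called higher without IUA replicate 3. The 2 members that fell, Iigp1 and Irgm2, both lost the call without IUA replicate 2, IUA replicate 3, Sham replicate 1 or Sham replicate 2, and 1 of them without IUA replicate 1.

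**Figure D4:**
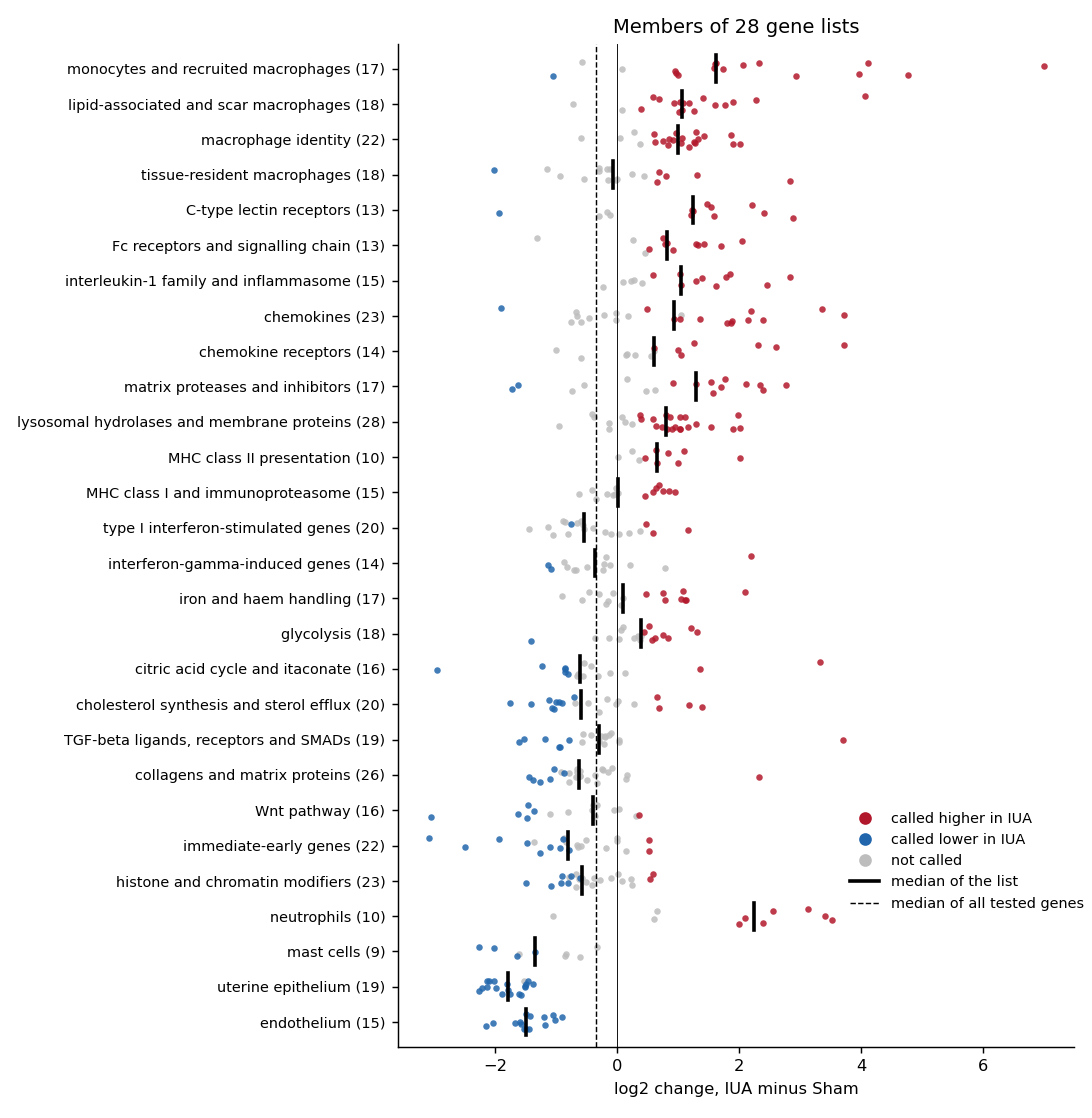
Log2 changes of the tested members of 28 gene lists, with the number of tested members in brackets, red for called higher in IUA, blue for called lower and grey for not called. Thick bars mark list medians, which range from -1.79 (uterine epithelium) to 2.24 (neutrophils), and the dashed line marks the median of all tested genes at -0.35.

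Genes of the fibrotic pathway did not move as a block. Of the TGF-beta list, 1 of 19 tested members rose and 6 fell (median log2 change -0.29), beside 11.1% and 23.4% of all tested genes. Tgfb1, the ligand best known for driving fibroblasts to make collagen, was at 1.96, 1.95 and 0.48 FPKM in IUA, against 2.38, 1.76 and 1.54 FPKM in Sham. The groups overlapped, and it was not called (log2 change -0.29 ± 0.24). Tgfb2 and Tgfb3 were not called, at -0.21 ± 0.21 and -0.43 ± 0.19. Inhba, given above, was the 1 member that rose. The receptor genes Tgfbr2 and Tgfbr3 fell, Tgfbr2 with 13.4, 11 and 8.12 FPKM in IUA, against 23.2, 28 and 25.6 FPKM in Sham (log2 change -1.19 ± 0.18, SE, adjusted p = 2.86e-04) and Tgfbr3 by -1.62 ± 0.22. The members that fell numbered 3 without Sham replicate 3, with the IUA and Sham libraries fitted alone, with GC correction and without IUA replicate 3, and at an adjusted p under 0.01. Of collagens and matrix proteins, 1 of 26 tested members rose and 6 fell (median log2 change -0.63). The share that fell, 23.1%, was near that of all tested genes. Fn1, fibronectin, which macrophages also make, had 187, 247 and 123 FPKM in IUA, against 38.5, 30.7 and 35.9 FPKM in Sham and was the 1 member that rose (log2 change 2.32 ± 0.25, SE, adjusted p = 4.55e-05). The fibrillar collagen genes Col1a1, Col1a2 and Col3a1 were not called, at -0.68 ± 0.54, -0.08 ± 0.48 and -0.26 ± 0.50. The basement membrane collagen genes Col4a1 and Col4a2 fell with log2 changes of -1.38 ± 0.26 and -1.26 ± 0.22. Without IUA replicate 1 the members that fell numbered 13, with TPM scaling alone 11, and with a filter at 5 FPKM 3. Stromal sums were highest in that library among the IUA libraries, at 1108 FPKM, and their part in this was not tested.

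Matrix-degrading enzymes mostly rose, as 10 of 17 tested members rose and 2 fell (median log2 change 1.29). Mmp12, macrophage elastase, had 661, 278 and 469 FPKM in IUA, against 47.8, 50.3 and 111 FPKM in Sham, above every Sham library in each IUA library (log2 change 2.76 ± 0.36, SE, adjusted p = 1.43e-04). The collagenases Mmp13 and Mmp8 rose with log2 changes of 1.57 ± 0.34 and 2.39 ± 0.34, and Mmp8 is also a neutrophil gene. Timp1, an inhibitor of these enzymes, rose with a log2 change of 2.10 ± 0.30, while Timp3 fell with a log2 change of -1.73 ± 0.26 and Timp2 was not called (log2 change 0.16 ± 0.26). In coagulation and fibrinolysis 6 of 16 tested members rose and 2 fell (median log2 change 0.33). F7, of the extrinsic cascade, and F10, on which it acts, rose with log2 changes of 4.11 ± 0.37 and 3.96 ± 0.20. Serpinb2, an inhibitor of plasminogen activators, rose with a log2 change of 2.78 ± 0.31. Serpinb2 had 229.8, 131 and 154 FPKM in IUA, against 23.6, 19.99 and 27.3 FPKM in Sham. Plat, tissue plasminogen activator, had 156, 254 and 156 FPKM in IUA, against 624, 781 and 762 FPKM in Sham (log2 change -1.96 ± 0.34, SE, adjusted p = 6.18e-04). Of the 2 members that fell, F3 lost its call without IUA replicate 1, Sham replicate 2 or Sham replicate 3.

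Growth factors and hormone receptors were divided. Of the growth factor list, 6 of 18 tested members rose and 4 fell (median log2 change -0.21). The share that fell, 22.2%, was near the 23.4% of all tested genes. Vegfa, which drives vessel growth, had 40.9, 43.1 and 30.2 FPKM in IUA, against 19.1, 22.4 and 17.5 FPKM in Sham (log2 change 0.91 ± 0.14, SE, adjusted p = 3.41e-04), and the epidermal growth factor relatives Areg and Ereg rose with log2 changes of 1.47 ± 0.20 and 0.92 ± 0.20. Ccn2, connective tissue growth factor, had 31.8, 34.6 and 29.1 FPKM in IUA, against 86.9, 117 and 187 FPKM in Sham (log2 change -1.93 ± 0.27, SE, adjusted p = 1.99e-04), and Ccn1 fell with a log2 change of -1.77 ± 0.34. Of the Wnt list, 1 of 16 tested members rose and 5 fell (median log2 change -0.40). The shares were 6.25% and 31.25%, beside 11.1% and 23.4% of all tested genes. Those that fell numbered 8 on the deposited scale alone, 9 with TPM scaling alone and 3 with a filter at 5 FPKM. Dkk3 had 10.2, 14.5 and 9.09 FPKM in IUA, against 91.2, 71.5 and 149 FPKM in Sham, and Wnt5a, Lgr5 and Fzd6 fell with log2 changes of -1.47 ± 0.24, -1.48 ± 0.23 and -1.63 ± 0.25. The 1 member that rose was not called without IUA replicate 2, IUA replicate 3 or Sham replicate 3. Of the sex steroid list, 2 of 11 tested members rose and 6 fell (median log2 change -0.79), and 3 fell with a filter at 5 FPKM. Esr1, the oestrogen receptor alpha, had 14.5, 29.4 and 23.5 FPKM in IUA, against 65.2, 77 and 90.6 FPKM in Sham, and Pgr, the progesterone receptor, had 0.8, 0.28 and 0.31 FPKM in IUA, against 2.95, 2.39 and 2.47 FPKM in Sham. The groups did not overlap for either, with changes of -1.79 ± 0.30 (SE, adjusted p = 4.93e-04) and -1.31 ± 0.18 (SE, adjusted p = 1.90e-04). Ltf, lactoferrin, an oestrogen-induced protein of uterine epithelium and of neutrophil granules, ran the other way at 242, 307 and 246 FPKM in IUA, against 23.6, 76 and 46.7 FPKM in Sham (log2 change 2.56 ± 0.52, SE, adjusted p = 0.00154). Integrin genes moved both ways, as 6 of 16 tested members rose and 4 fell (median log2 change -0.23). The share that fell, 25.0%, was near the 23.4% of all tested genes. The leukocyte chains Itgb2 and Itgam rose with log2 changes of 1.69 ± 0.15 and 1.89 ± 0.22, and the epithelial and matrix receptor chains Itga6, Itga3 and Itgb4 fell with log2 changes of -1.75 ± 0.26, -1.86 ± 0.34 and -1.59 ± 0.22.

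Metabolic genes changed in a selective manner. Arginine enters the cell through transporters, is split by arginase to ornithine or oxidised by nitric oxide synthase, and ornithine feeds polyamines. In this list 5 of 15 tested members rose and 4 fell (median log2 change -0.04). The share that fell, 26.7%, was near the 23.4% of all tested genes. Slc7a2, the transporter of activated macrophages, had 54, 123 and 23.1 FPKM in IUA, against 4.91, 5.01 and 5.44 FPKM in Sham (log2 change 3.16 ± 0.43, SE, adjusted p = 1.78e-04), while the housekeeping transporter gene Slc7a1 fell with a log2 change of -0.88 ± 0.22, a call lost without IUA replicate 1, Sham replicate 2 or Sham replicate 3. Odc1, which makes putrescine from ornithine, had 245, 193 and 313 FPKM in IUA, against 121, 96.4 and 90.4 FPKM in Sham. Srm, spermidine synthase, fell with a log2 change of -1.01 ± 0.14 (SE, adjusted p = 1.83e-04). Nos2, the inducible nitric oxide synthase, had 0.94, 1.5 and 0.29 FPKM in IUA, against 0.01, 0.14 and 0.08 FPKM in Sham and was not called (log2 change 0.78 ± 0.36). Its highest level was a small fraction of the lowest Arg1 level in IUA. The count of members that fell was 2 without IUA replicate 1, Sham replicate 2 or Sham replicate 3.

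Glycolytic genes rose in part, with 8 of 18 tested members higher and 1 lower (median log2 change 0.39). The members that rose numbered 13 with the median-ratio scaling alone and 13 with GC correction and without IUA replicate 3. Eno1, enolase, had 837, 996 and 604 FPKM in IUA, against 338, 291 and 331 FPKM in Sham and Pgk1 had 155, 193 and 159.8 FPKM in IUA, against 71.2, 69.8 and 76.5 FPKM in Sham, both without overlap (log2 changes 1.31 ± 0.16 with adjusted p = 1.14e-04 and 1.21 ± 0.11 with adjusted p = 1.81e-05). Hexokinases diverged, since Hk1 fell with a log2 change of -1.42 ± 0.19 and Hk2 and Hk3 rose with log2 changes of 0.56 ± 0.16 and 0.83 ± 0.21. Ldha and the glucose transporter gene Slc2a1 were not called (log2 change 0.10 ± 0.13 and -0.14 ± 0.15). In the hypoxia list 6 of 16 tested members rose and 3 fell (median log2 change 0.16). The shares were 37.5% and 18.75%, beside 11.1% and 23.4% of all tested genes. Hilpda, which keeps lipid in droplets under low oxygen, had 1008, 841 and 912 FPKM in IUA, against 326, 210.2 and 215 FPKM in Sham, while Epas1, which encodes HIF-2 alpha, fell with a log2 change of -1.73 ± 0.27 (SE, adjusted p = 3.43e-04). The citric acid cycle list had 2 of 16 tested members higher and 6 lower (median log2 change -0.60). The members that fell numbered 12 on the deposited scale alone or with TPM scaling alone, 11 with quantile normalization alone and 3 at an adjusted p under 0.01. Acod1 makes itaconate from the cycle and had 187, 193 and 118 FPKM in IUA, against 20.2, 11.4 and 15.8 FPKM in Sham (log2 change 3.32 ± 0.31, SE, adjusted p = 1.96e-05). Pdha1 and Ogdh, of the dehydrogenases that feed and run the cycle, fell with log2 changes of -0.85 ± 0.11 and -1.24 ± 0.18, and Pcx, pyruvate carboxylase, had 2.37, 10.3 and 2.99 FPKM in IUA, against 26.8, 47.6 and 50.7 FPKM in Sham. Succinate dehydrogenase genes Sdha and Sdhb were not called (log2 change -0.44 ± 0.08 and 0.13 ± 0.12). Of the 22 nuclear genes of the respiratory chain none rose and 2 fell, or 1 without IUA replicate 1. Of the 13 mitochondrial ones limma called none, with 7 at an unadjusted p under 0.05, and without IUA replicate 3 it called 1 lower.

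Sterol genes moved in opposite directions by function, with 4 of 20 tested members higher and 9 lower (median log2 change -0.59). The export side rose. Abcg1, a cholesterol exporter, had 68.4, 42.2 and 82.4 FPKM in IUA, against 28.3, 21.4 and 19.9 FPKM in Sham, and Nr1h3, the sterol sensor LXR alpha, had 10.5, 8.54 and 9.49 FPKM in IUA, against 4.27, 3.28 and 3.42 FPKM in Sham (log2 changes 1.40 ± 0.21 with adjusted p = 2.92e-04 and 1.18 ± 0.19 with adjusted p = 4.78e-04). Enzymes of synthesis fell, Lss by -1.75 ± 0.23, Fdft1 by -1.42 ± 0.25, and Idi1 by -1.06 ± 0.19, and so did Srebf1 (log2 change -1.12 ± 0.16). Members that fell numbered 5 without Sham replicate 2 and 5 at an adjusted p under 0.01. Of the iron list, 8 of 17 tested members rose and none fell (median log2 change 0.09). Slc11a1, which pumps metal ions out of phagosomes, rose with a log2 change of 1.11 ± 0.16, and the iron exporter gene Slc40a1 was not called (log2 change -0.47 ± 0.13). In the antioxidant list 7 of 18 tested members rose and 1 fell (median log2 change 0.20), and 13 rose with the median-ratio scaling alone. Prdx5, a peroxiredoxin, had 340.3, 411 and 292 FPKM in IUA, against 94.4, 88.4 and 89.3 FPKM in Sham, and the cystine importer gene Slc7a11 rose with a log2 change of 1.84 ± 0.21. Nqo1 and Srxn1, standard targets of NRF2, were not called (log2 change -0.41 ± 0.17 and -0.03 ± 0.19).

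In the lipid mediator list 8 of 17 tested members rose and 2 fell (median log2 change 0.26). Ptgs2, cyclooxygenase 2, had 713, 869 and 527 FPKM in IUA, against 176, 144 and 165 FPKM in Sham, and Ptges, the inducible prostaglandin E synthase, had 23.1, 21.9 and 12.3 FPKM in IUA, against 2.46, 2.25 and 1.87 FPKM in Sham. The groups did not overlap for either (log2 changes 2.09 ± 0.22 with adjusted p = 4.42e-05 and 2.61 ± 0.34 with adjusted p = 1.41e-04). The receptor gene Ptger2 rose with a log2 change of 1.74 ± 0.18 and Ptger4 was not called (log2 change -0.54 ± 0.21). Alox5ap, which presents arachidonate to 5-lipoxygenase, had 160, 163 and 161 FPKM in IUA, against 58.1, 44.3 and 45 FPKM in Sham, whereas the lipoxygenase gene Alox5 itself changed by -0.44 ± 0.18 and was not called. The members that fell were Alox15 and Hpgd. Alox15 was not called without IUA replicate 1, IUA replicate 3, Sham replicate 1 or Sham replicate 3, and Hpgd not without IUA replicate 1 or Sham replicate 1.

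**Figure D5:**
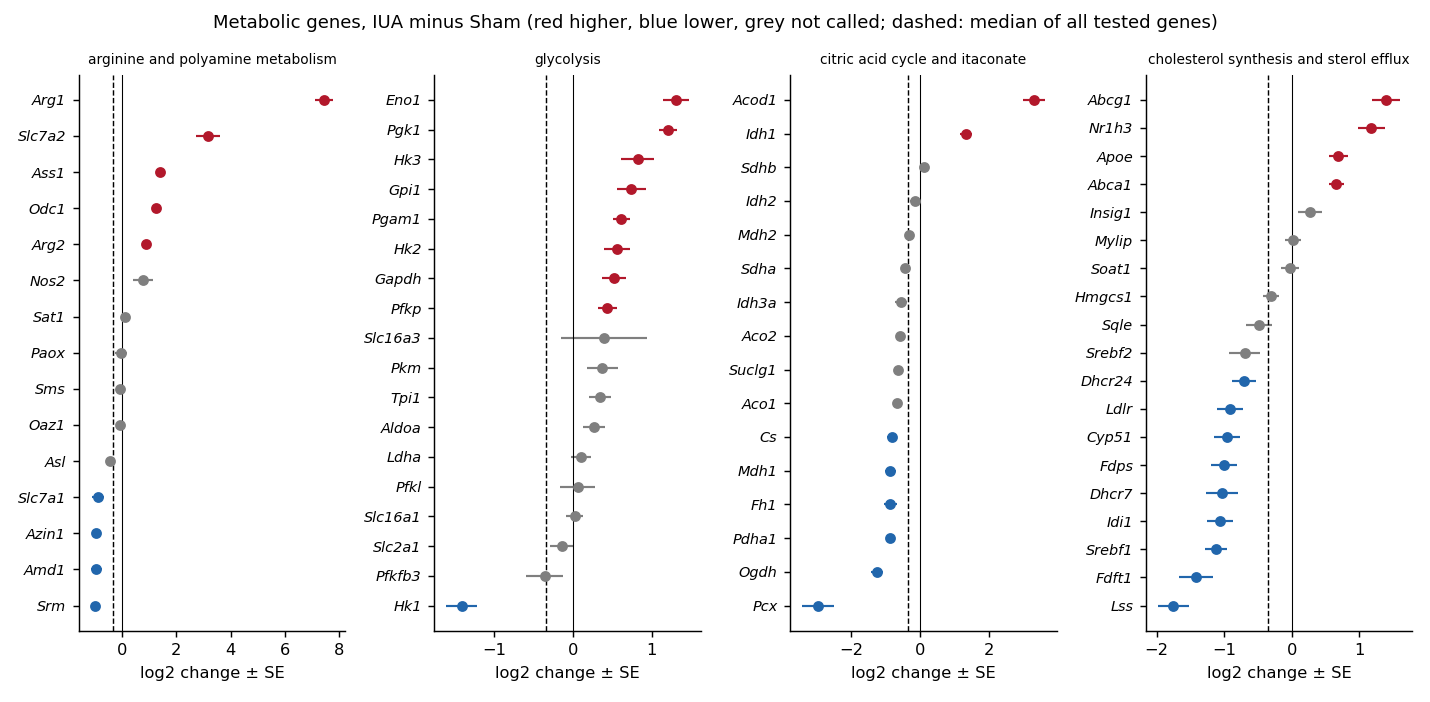
Log2 change ± SE (IUA minus Sham) for tested genes of 4 metabolic lists, red for called higher, blue for called lower and grey for not called, with the all-gene median of -0.35 dashed. Arg1 (7.43), Slc7a2 (3.16) and Acod1 (3.32) stand at the top, and 9 sterol genes were called lower.

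Of the immediate-early list, 2 of 22 tested members rose and 9 fell (median log2 change -0.81), beside 11.1% and 23.4% of all tested genes. The members that fell numbered 16 on the deposited scale alone, 17 with TPM scaling alone and 14 with quantile normalization alone. They numbered 5 with the IUA and Sham libraries fitted alone and 4 at an adjusted p under 0.01. Jund had 42.1, 56.2 and 11 FPKM in IUA, against 194, 169 and 160.1 FPKM in Sham, with IUA replicate 3 lowest (log2 change -2.50 ± 0.42, SE, adjusted p = 5.56e-04). Nr4a1, a nuclear receptor switched on by many stimuli, had 162, 278 and 79.9 FPKM in IUA, against 502, 701 and 578 FPKM in Sham. Fos, by comparison, changed by -0.01 ± 0.10 and Atf3 by 0.15 ± 0.12, neither called. The members that rose, Dusp1 and Klf4, were reduced to 1 without IUA replicate 3, Sham replicate 2 or Sham replicate 3. Of the heat shock list, none of 12 tested members rose and 4 fell (median log2 change -0.65). The share that fell was 33.3%, beside 23.4% of all tested genes, and 2 fell without Sham replicate 2 or Sham replicate 3. Hspb1, a small heat shock protein, had 230.4, 237 and 190 FPKM in IUA, against 706, 695 and 603 FPKM in Sham (log2 change -1.61 ± 0.16, SE, adjusted p = 3.34e-05), and Hspa8, a constitutive chaperone, changed by 0.02 ± 0.12 and was not called.

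Regulators of transcription split as well. Of macrophage transcription factors, 8 of 28 tested members rose and 3 fell (median log2 change 0.18), and 16 rose with the median-ratio scaling alone and 14 with quantile normalization alone. Mitf and Tfec, of one family that controls lysosomal genes, rose with log2 changes of 1.03 ± 0.13 and 1.05 ± 0.20, and Id2 by 0.999 ± 0.13. Stat3 had 143, 145 and 104 FPKM in IUA, against 248, 305 and 296 FPKM in Sham, lower in each IUA library (log2 change -1.12 ± 0.14, SE, adjusted p = 1.07e-04), and Cebpd fell with a log2 change of -1.20 ± 0.23. Irf8, Pparg and Hif1a were not called (log2 change -0.14 ± 0.14, 0.23 ± 0.23 and 0.20 ± 0.10). Of histone and chromatin modifiers, 2 of 23 tested members rose and 7 fell (median log2 change -0.58). These shares, 8.70% and 30.4%, were near the 11.1% and 23.4% of all tested genes. The histone deacetylase genes Hdac6 and Hdac2 fell with log2 changes of -1.49 ± 0.21 and -0.90 ± 0.15, and Kdm6b, a demethylase of histone H3, rose with a log2 change of 0.59 ± 0.15. Members that fell numbered 4 without IUA replicate 3, Sham replicate 2 or Sham replicate 3, and 1 rose instead of 2 without the same libraries. On the deposited scale alone 15 fell and with TPM scaling alone 16. With no filter or with the IUA and Sham libraries fitted alone 4 fell, and 3 fell with the replicate block, with GC correction and without IUA replicate 3, or at an adjusted p under 0.01.

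Of 30 cytosolic ribosomal protein genes limma called none, with 15 at an unadjusted p under 0.05. Their median log2 change was -0.22, or 0.16 after the median-ratio scaling. Without Sham replicate 1 it called 1 higher, and without IUA replicate 3 it called 1 lower. Of the proteasome list, 2 of 22 tested members rose and none fell (median log2 change -0.02). The share that rose, 9.09%, was near the 11.1% of all tested genes. The count that rose was 1 without IUA replicate 3 or any Sham library. Of the cell cycle list, 2 of 23 tested members rose and 3 fell (median log2 change -0.15), beside 11.1% and 23.4% of all tested genes. Cdkn1a, the cyclin-dependent kinase inhibitor p21, had 826, 857 and 919 FPKM in IUA, against 725, 611 and 673 FPKM in Sham (log2 change 0.37 ± 0.09, SE, adjusted p = 0.00392), Ccnd1, cyclin D1, fell with a log2 change of -1.10 ± 0.17, and Top2a was not called (log2 change -0.60 ± 0.19). Without Sham replicate 1 the members that rose numbered 6, and without IUA replicate 2 or 3 or Sham replicate 2 or 3 they numbered 1. The members that fell numbered 1 without IUA replicate 3, Sham replicate 1 or Sham replicate 2. Actin regulators rose more often than they fell, with 10 of 20 tested members higher and 3 lower (median log2 change 0.37). Among all tested genes 11.1% were called higher and 23.4% lower. Capg, a capping protein of myeloid cells, had 559, 539 and 505 FPKM in IUA, against 115, 68.5 and 91 FPKM in Sham (log2 change 2.56 ± 0.17, SE, adjusted p = 1.94e-06), Coro1a rose with a log2 change of 1.18 ± 0.22, and Fscn1 and Vasp fell with log2 changes of -1.68 ± 0.27 and -1.40 ± 0.22.

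The largest called decreases were in genes outside the myeloid lists. Car12, a carbonic anhydrase of the cell surface, had 4.95, 5.59 and 4.25 FPKM in IUA, against 69.4, 24.8 and 97.8 FPKM in Sham. Gulo, which makes vitamin C in mice, had 2.87, 17.6 and 5.49 FPKM in IUA, against 40.8, 102 and 83.3 FPKM in Sham, and Prss28, a serine protease of uterine glands, had 5.08, 3.39 and 31.6 FPKM in IUA, against 83, 59.3 and 109 FPKM in Sham. All IUA values of these genes lay below all Sham values, as the rule that named them required. Their log2 changes were -3.26 ± 0.67 (SE, adjusted p = 0.00165), -3.20 ± 0.59 (SE, adjusted p = 8.97e-04) and -3.11 ± 0.71 (SE, adjusted p = 0.00319). Slc39a4, a zinc importer, had 112, 347 and 128 FPKM in IUA, against 792, 1293 and 1238 FPKM in Sham, the largest loss of FPKM among these. Cbs, which turns homocysteine into cystathionine, fell with a log2 change of -2.86 ± 0.47, the cytokine receptor gene Il17rb by -2.86 ± 0.46, the keratin gene Krt17 by -2.88 ± 0.40 and the water channel gene Aqp5 by -2.61 ± 0.52. The synaptic vesicle genes Syn2 and Sv2b fell with log2 changes of -3.01 ± 0.45 and -2.60 ± 0.34. Of the uterine gland list, 2 of 15 tested members rose and 5 fell (median log2 change -1.28), with Ltf and Sprr2f higher. The shares were 13.3% and 33.3%, beside 11.1% and 23.4% of all tested genes. The members that fell numbered 9 on the deposited scale alone, with TPM scaling alone or with the replicate block, and 8 with quantile normalization alone or with the IUA and Sham libraries fitted alone. At an adjusted p under 0.01 they numbered 2. Sprr2f lost its call without IUA replicate 3 or Sham replicate 1. The epithelial sums given above were also lower in IUA. Among IUA libraries they were highest in replicate 2, as was Gulo, while Prss28 was lowest there. The part of epithelial cells in these decreases was not tested.

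IUA libraries were less alike than Sham libraries. The median SD of log2(FPKM + 1) over tested genes was 0.221 among IUA libraries and 0.178 among Sham libraries, and 60.4% of genes had the larger SD in IUA. Retnla, a resistin-like protein of alternatively activated macrophages, had 423, 913 and 167 FPKM in IUA, against 95.2, 37.6 and 60.5 FPKM in Sham, a log2 change of 2.72 ± 0.67 (SE, adjusted p = 0.00494). IUA replicate 2 was highest and replicate 3 lowest for Retnla, as for Chil3, Arg1 and Saa3. S100a9, the partner of S100a8, had 71.4, 17 and 25.6 FPKM in IUA, against 0.99, 1.32 and 3.97 FPKM in Sham. IUA replicate 1 was the highest library for S100a9, as for Gpnmb. Plvap, a protein of fenestrated vessels, had 29, 25.4 and 4.88 FPKM in IUA, against 106, 71.3 and 52.4 FPKM in Sham, and its change of -2.16 ± 0.49 was -1.40 without IUA replicate 3. Rem2, a small GTPase, had 2.88, 19.9 and 8 FPKM in IUA, against 62, 36.5 and 46.4 FPKM in Sham with IUA replicate 2 highest (log2 change -2.42 ± 0.46).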

How the data were processed

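The deposited table holds the authors' FPKM per gene and library, rounded to 2 decimals. Per the submitters' processing notes, fastp, HISAT2, StringTie, RSEM and DESeq2 were used with the build mm10, and their versions and settings are not given in the sources used here. FPKM holds no read counts and gives no depth. Neither a count test nor a counting interval was therefore used, and precision rests on 3 libraries per group. In all, 4237 genes were at 0 throughout. The names of 27 genes had been turned into dates and were restored, and 25 identifiers that shared a symbol were kept apart. No 2 libraries held identical values. Gene positions come from GENCODE M21.

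Values entered the tests as log2(FPKM + 1). The software was limma 3.58.1 under R 4.3.3 and Python 3.11.15. One linear model with a mean per group and an empirical Bayes variance trend was fitted to all 12 libraries, and tests were two-sided with Benjamini-Hochberg adjustment over the 11604 genes. A gene was called at an adjusted p under 0.05 with the same sign in both scalings. The scripts were tested on simulated data. Members, lists, the rule for named genes and motifs were chosen with earlier results of these data known. The rule names, per direction, up to 16 called genes by log2 change and up to 10 by difference in mean FPKM, whose groups did not overlap, up to 4 called members per list by p (2 where none was called), marker genes of the sort and of other cells, genes that vary among IUA libraries and genes near 0 in one group, and leaves out predicted, clone, pseudogene and immunoglobulin names. Other genes named, all members of the lists, were chosen after their values were seen. Alternatives covered pseudocounts, filters, scalings, other fits, thresholds, GC correction (lowess, span 0.3) and leaving out each library. A few list members are counted but not reported by name here.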

Additional observations from a re-analysis of the deposited data

How the results depend on the processing

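The call asks both scalings to pass, and each scaling alone gave more calls in one direction. Genes higher numbered 1291, but 2532 with the median-ratio scaling alone and 2594 with quantile normalization alone. Genes lower numbered 2716, but 5226 on the deposited scale alone and 6118 with TPM scaling alone. A log2 change of at least 1 left 427 higher and 1636 lower, and an adjusted p under 0.01 left 1555 lower. Leaving out each library in turn gave 1069 to 1372 higher and 2004 to 2680 lower, and the other alternatives stayed within 1.5 times of both counts. GC correction together with leaving out IUA replicate 3, an alternative chosen after seeing the data, gave 1244 higher and 2229 lower. Of 450 called list members and named genes, 364 were called without each library in turn. Among the named genes the sign reversed for Cd74 (-0.076) and Gpm6a (0.0251) under quantile normalization, and the cause was not tested. The labels do not say whether replicate numbers pair the samples, so the main fit left pairing out. Deviations of same-numbered libraries correlated at 0.288, 0.198 and -0.04, and those of different-numbered ones at -0.326 to 0.196. These few values cannot decide whether the samples are paired. A fit of IUA and Sham alone with the replicate block gave 1050 higher and 2243 lower, against 1037 and 2025 without the block. The FPKM are rounded to 0.01, so genes near that step carry little precision.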

Other observations

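Some genes were close to 0 in Sham and clearly present in IUA. Under 1 FPKM in all Sham libraries and at least 5 FPKM in all IUA libraries were 8 tested genes, and the reverse held for 1. Rnase2a, an eosinophil-associated ribonuclease of mice, had 16.2, 28.5 and 9.01 FPKM in IUA, against 0, 0 and 0.19 FPKM in Sham, with 2 Sham libraries listed at 0. Car6, a secreted carbonic anhydrase, had 7.88, 12.3 and 6.84 FPKM in IUA, against 0.17, 0.39 and 0.18 FPKM in Sham. Ly6i had 32.3, 53.4 and 26.3 FPKM in IUA, against 0.18, 0.34 and 0.57 FPKM in Sham. Il7r, the interleukin-7 receptor, was counted among T and NK cell genes and had 42.2, 24.4 and 45.4 FPKM in IUA, against 8.67, 6.91 and 6.1 FPKM in Sham (log2 change 2.18 ± 0.20, SE, adjusted p = 1.81e-05), while the defining genes Cd3d, Cd3e and Cd3g stayed below 1 FPKM in all 6 libraries. Sdc1, syndecan-1, counted among plasma cell genes, had 174, 95.5 and 62.8 FPKM in IUA, against 37.5, 35 and 40.6 FPKM in Sham (log2 change 1.41 ± 0.26, SE, adjusted p = 9.10e-04). Hpx, haemopexin, which binds haem in plasma, had 1.42, 0.72 and 0.77 FPKM in IUA, against 11.3, 8.9 and 9.22 FPKM in Sham (log2 change -2.47 ± 0.28, SE, adjusted p = 5.99e-05), and Xbp1, of the unfolded protein response, fell with a log2 change of -0.89 ± 0.10.

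The genes called higher in IUA against Sham held 49.4% to 52.0% of the summed FPKM in libraries of IUA mice given primed MSC and 48.4% to 52.8% in those given control MSC, beside 49.3% to 53.9% in IUA and 26.8% to 30.8% in Sham. The genes were picked for being higher in these IUA than in these Sham libraries, so the gap between those groups was fixed by the choice. That choice also favours high values in the IUA libraries, so they are no even reference for the MSC libraries. No test was made of these shares.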
